A study of Mus musculus with 24 samples.

Results

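The genes of MHC class I antigen presentation were followed over 24 mouse tumours. They were the heavy chains H2-K1 and H2-D1, the light chain B2m, the peptide transporter subunits Tap1 and Tap2, the loading factor Tapbp (tapasin), the transactivator Nlrc5, the immunoproteasome subunits Psmb8 and Psmb9, and the peptide-trimming enzyme Erap1. Members were taken by symbol: a probe set belonged when the annotation of the array gave it 1 of these 10 symbols. No measured value entered that match, but the list of symbols was drawn up with earlier results of these data known. 9 of the 10 genes were found, with 1 probe set each, among the 19505 genes measured, and Nlrc5 was not analysed here.

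RNA was hybridised to Clariom S arrays, which report 1 signal per transcript cluster, from 250 ng of total RNA of homogenised tumour tissue. By its title the study blocked autophagy and the receptors for IGF1 and insulin as an intervention in pancreatic ductal adenocarcinoma. Its 4 groups of 6 tumours were a vector-treated control, BMS754807 alone (an inhibitor of both receptors), hydroxychloroquine alone (a weak base that stops lysosomes from breaking down what autophagy delivers), and BMS754807 with hydroxychloroquine, called the combination below. Mouse strain, genotype, tumour model and site, doses and treatment times were not given in the sources used here. Separate animals are not stated as the source of the 6 tumours of a group, so every p measures the spread between these samples, part of which may be technical.

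The labelled tissue was checked against defining markers. The ductal keratins were high in every tumour, with Krt19 between 15.15 and 15.94 log2 signal and Krt8 between 15.97 and 16.65. Epcam varied more, from 10.68 to 14.92, and the mean over 10 epithelial and ductal genes ran from 13.19 to 14.72. The mean over 7 acinar enzymes stayed between 3.90 and 4.39. Leukocyte RNA varied, with Ptprc (CD45) from 8.57 to 12.79 and Cd8a from 4.06 to 8.56. Muscle and fat transcripts varied widely between tumours: the mean over 8 skeletal muscle genes ran from 4.62 to 13.88, and the mean over 5 adipocyte genes from 4.62 to 12.30. In bulk tissue, fewer cells of a type and less RNA per cell cannot be told apart.

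MHC class I molecules show fragments of the cell's own proteins to CD8 T cells. Proteasomes cut proteins into peptides, the TAP transporter carries the peptides into the endoplasmic reticulum, Erap1 trims them, and tapasin holds the heavy chain and B2m at TAP until a peptide binds. Interferon-gamma induces most of these genes, through the transcription factor Irf1 and the transactivator Nlrc5, which acts on a conserved promoter module together with RFX, CREB and NF-Y proteins. Pancreatic cancer cells can send class I proteins to lysosomes by autophagy with the cargo receptor Nbr1. That route acts on protein, and the arrays measured only transcripts.

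The start regions of the members show how their promoters are built, and 3 of them are printed because the transcripts that varied together, described below, belong to them. Sequences are from RefSeq (GRCm38.p6), in which 8 of the 9 measured members had a start region, H2-K1 with 2 starts. There was no entry for Tap2. The window was the 250 bases before a start, and the build behind the array design was not given in the sources used here. Capitals mark matches, on either strand, to 5 motifs. These were the interferon-stimulated response element (GAAA, any 2 bases, GAAA), the CCAAT box bound by NF-Y (CCAAT, or ATTGG on the other strand), the gamma-activated site (TTCNNNGAA), a kappa B site (GGGATTCCC) and the core of the X2 box of class I promoters (TGACG). All are written 5′ to 3′ on the plus strand. In the 3 printed regions no match overlapped another.

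The first is the shared interval of Tap1 and Psmb9, chr17:34187331-34187555, which are transcribed away from each other with 225 bases between their starts. The second is the region before B2m, chr2:122147437-122147686, which also lies inside the annotated interval of Patl2 on the other strand. The third is the region before H2-D1, chr17:35262844-35263093.
Tap1 and Psmb9: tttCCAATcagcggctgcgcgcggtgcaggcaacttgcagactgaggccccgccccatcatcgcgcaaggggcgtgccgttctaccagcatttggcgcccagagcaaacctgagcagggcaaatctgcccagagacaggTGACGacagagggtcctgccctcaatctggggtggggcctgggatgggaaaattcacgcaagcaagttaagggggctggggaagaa
B2m: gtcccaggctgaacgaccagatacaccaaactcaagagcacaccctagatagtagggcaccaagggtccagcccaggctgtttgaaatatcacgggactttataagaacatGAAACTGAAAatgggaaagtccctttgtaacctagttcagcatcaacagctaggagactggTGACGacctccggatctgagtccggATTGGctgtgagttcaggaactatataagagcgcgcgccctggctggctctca
H2-D1: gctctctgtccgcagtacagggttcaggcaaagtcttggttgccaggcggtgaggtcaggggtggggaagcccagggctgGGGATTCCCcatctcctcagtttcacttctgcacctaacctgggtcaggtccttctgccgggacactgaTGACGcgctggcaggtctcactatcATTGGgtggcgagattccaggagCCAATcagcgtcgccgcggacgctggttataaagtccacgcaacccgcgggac

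The B2m region held an interferon-stimulated response element whose first base lay 139 bases before the start. Of 32817 RefSeq start regions, 974 (2.97%) held that motif. The H2-D1 region held a kappa B site at 170 bases, a motif in 99 regions (0.302%), and both starts of H2-K1 held one too. The Tap1 and Psmb9 interval held TGACG and CCAAT, which are short and occurred in 17.7% and 33.8% of all regions. The gamma-activated site was in 7.01% of regions and, among the members, in that of Psmb8, at 97 bases. In B2m, H2-D1 and both starts of H2-K1, TGACG was followed by ATTGG with 25 bases from first letter to first letter. That spacing occurred in 30 of the 32817 regions (0.0914%), from 26 genes, with the non-classical heavy chain H2-M3 among them. The Tapbp region held only CCAAT, at 248 and 165 bases, and the Erap1 region held none of the 5 motifs. A match of letters is not a measured binding site, and a missing match says only that those letters were not in the window.

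No member was called as different between groups, which does not show that the groups were equal. Each of the 9 was called in 0 of the 8 comparisons fitted across all genes with limma at an adjusted p under 0.05. The same held for the whole array, with 0 of 19505 genes (0%) called in every comparison, while between 939 and 1679 genes had an unadjusted p under 0.05 in limma. For all 9 members, the values of any group overlapped those of every other group, so 0 of 9 members separated any 2 groups. Over all genes the values did not overlap for 0.174% (BMS754807), 0.154% (hydroxychloroquine) and 0.308% (combination) against control. The share was 0.508% between the single agents, 0.651% between the combination and BMS754807, and 0.267% between the combination and hydroxychloroquine, so 0 of 9 is near what the array gives. Between 3.31% (Tap2) and 21.2% (Tapbp) of a member's variance lay between the groups, against a median of 12.2% over all genes. The members other than Tapbp all lay under that median, the highest of them Erap1 with 10.8%.

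**Figure D1:**
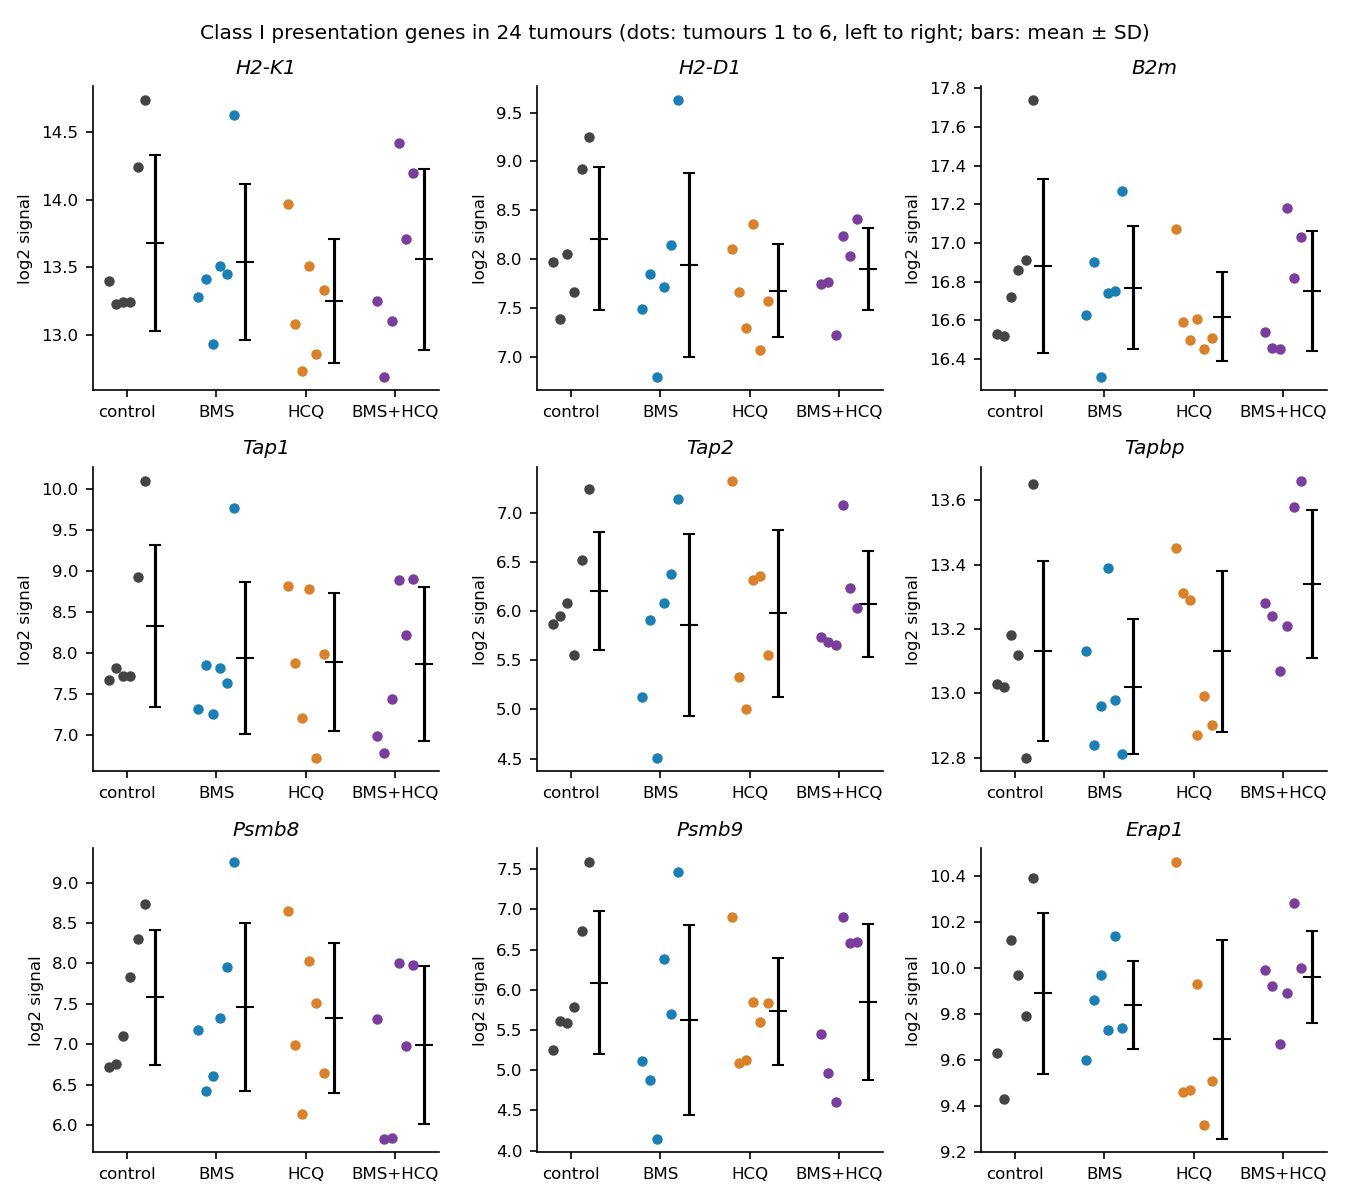
Log2 signal (vertical axes) of the 9 measured class I presentation genes in each of 24 tumours, by group (horizontal axes; BMS is BMS754807, HCQ hydroxychloroquine). Dots are tumours 1 to 6 from left to right and bars are the mean ± SD of 6 tumours. The groups overlap in every panel, and control tumour 6 is the highest control tumour in each.

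H2-K1 and H2-D1 encode the classical heavy chains, the subunits that hold the peptide. H2-K1 ran from 13.23 to 14.74 log2 signal in control tumours (median 13.32) and from 12.93 to 14.63 under BMS754807 (median 13.43). It ran from 12.73 to 13.97 under hydroxychloroquine (median 13.20) and from 12.69 to 14.42 in the combination (median 13.48). In control, 4 tumours lay within 13.23 to 13.40, and tumours 5 (14.24) and 6 (14.74) stood above them. Under BMS754807 it was tumour 6 alone that stood above the rest, and in the combination tumours 4 and 6 were the highest. The difference from control was -0.15 ± 0.32 (SE) for BMS754807 (adjusted p = 0.995), -0.435 ± 0.32 for hydroxychloroquine (adjusted p = 0.979) and -0.12 ± 0.32 for the combination (adjusted p = 0.99).

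For H2-D1 the range was 7.39 to 9.25 in control (median 8.01), 6.80 to 9.63 under BMS754807 (median 7.78), 7.07 to 8.36 under hydroxychloroquine (median 7.62) and 7.23 to 8.41 in the combination (median 7.90). The upper ends of the first 2 ranges were again control tumours 5 and 6 and BMS754807 tumour 6, the only tumours above 8.41. Differences from control were -0.27 ± 0.37, -0.53 ± 0.37 and -0.30 ± 0.37 for BMS754807, hydroxychloroquine and the combination, with adjusted p between 0.975 and 0.986. Class I heavy chains are near-identical paralogs, and the probes of one may take up transcripts of another, so the 2 genes may not be independent measurements.

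B2m, the light chain that every class I molecule needs, varied less between tumours than the heavy chains did, with an SD of 0.327 over the 24 tumours against 0.577 for H2-K1 and 0.659 for H2-D1. It lay between 16.52 and 17.74 in control (median 16.79) and between 16.31 and 17.27 under BMS754807 (median 16.74). Under hydroxychloroquine it lay between 16.45 and 17.07 (median 16.55), and in the combination between 16.45 and 17.18 (median 16.68). Control tumour 6 stood 0.68 of the control range above the next tumour, and under hydroxychloroquine tumour 1 did so by 0.742 of the range, while the other 5 hydroxychloroquine tumours lay within 16.45 to 16.61. The differences from control were -0.11 ± 0.19, -0.26 ± 0.19 and -0.13 ± 0.19 in the same order, with adjusted p of 0.988, 0.979 and 0.982. The 95% interval for hydroxychloroquine ran from 0.637 to 1.1 times the control level, so a change of B2m transcript within those bounds cannot be told from none in these tumours.

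The transporter subunits varied more. Tap1 lay between 7.67 and 10.10 in control (median 7.77), 7.25 and 9.77 under BMS754807 (median 7.72), 6.72 and 8.81 under hydroxychloroquine (median 7.93) and 6.77 and 8.90 in the combination (median 7.82). The 4 medians spanned less than the gap from control tumour 5 (8.93) to control tumour 4 (7.72). Mean Tap1 was 8.33 ± 0.99 (SD, n = 6) in control, a value that control tumour 6 at 10.10 and tumour 5 drew above the group's median. The differences were -0.39 ± 0.50, -0.43 ± 0.50 and -0.46 ± 0.50 (SE), with adjusted p of 0.986, 0.991 and 0.963. Their 95% intervals together ran from 0.356 to 1.56 times the control level.

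Tap2 lay between 5.56 and 7.25 in control (median 6.02), 4.51 and 7.14 under BMS754807 (median 6.00), 5.01 and 7.33 under hydroxychloroquine (median 5.94) and 5.66 and 7.08 in the combination (median 5.88). Each group had 1 tumour above 7: control 6, BMS754807 6, hydroxychloroquine 1 and combination 4. The differences of the means were -0.35 ± 0.40, -0.22 ± 0.40 and -0.13 ± 0.40, with adjusted p from 0.984 to 0.992.

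Psmb8 and Psmb9 encode catalytic subunits that replace constitutive ones in the immunoproteasome. Psmb8 ran from 6.72 to 8.74 in control (median 7.46), 6.42 to 9.26 under BMS754807 (median 7.26), 6.13 to 8.65 under hydroxychloroquine (median 7.25) and 5.83 to 8.01 in the combination (median 7.14). The combination held the lowest tumours of all, 2 (5.83) and 3 (5.84), but its other 4 tumours lay among those of the other groups. The difference from control was -0.115 ± 0.51 for BMS754807, -0.25 ± 0.51 for hydroxychloroquine and -0.58 ± 0.51 for the combination, with adjusted p of 0.996, 0.991 and 0.954. The last was the largest difference of any member from control, and it was about as large as its SE.

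Psmb9 ran from 5.25 to 7.59 in control (median 5.70), 4.15 to 7.46 under BMS754807 (median 5.41), 5.09 to 6.90 under hydroxychloroquine (median 5.72) and 4.61 to 6.91 in the combination (median 6.02). The order of the medians differed from that of Psmb8, with the combination highest here and lowest there. Differences of the means were -0.48 ± 0.51, -0.36 ± 0.51 and -0.24 ± 0.51, with adjusted p from 0.978 to 0.991.

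Tapbp and Erap1 were steadier. Tapbp lay between 12.80 and 13.65 in control (median 13.08), 12.81 and 13.39 under BMS754807 (median 12.97), 12.87 and 13.45 under hydroxychloroquine (median 13.14) and 13.07 and 13.66 in the combination (median 13.26). Combination tumours 5 (13.58) and 6 (13.66) and control tumour 6 (13.65) were its 3 highest values. BMS754807 tumour 6, high for the other members except Erap1, was at 12.81. Differences from control were -0.115 ± 0.145 for BMS754807, 0.0017 ± 0.145 for hydroxychloroquine and 0.21 ± 0.145 for the combination, with adjusted p of 0.986, 1 and 0.944.

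Erap1 lay between 9.43 and 10.39 in control (median 9.88), 9.60 and 10.14 under BMS754807 (median 9.80), 9.32 and 10.46 under hydroxychloroquine (median 9.49) and 9.67 and 10.28 in the combination (median 9.96). Hydroxychloroquine tumour 1 held the highest value of the 24, although its group had the lowest median. Differences were -0.048 ± 0.18, -0.20 ± 0.18 and 0.07 ± 0.18, with adjusted p from 0.99 to 0.995.

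**Figure D2:**
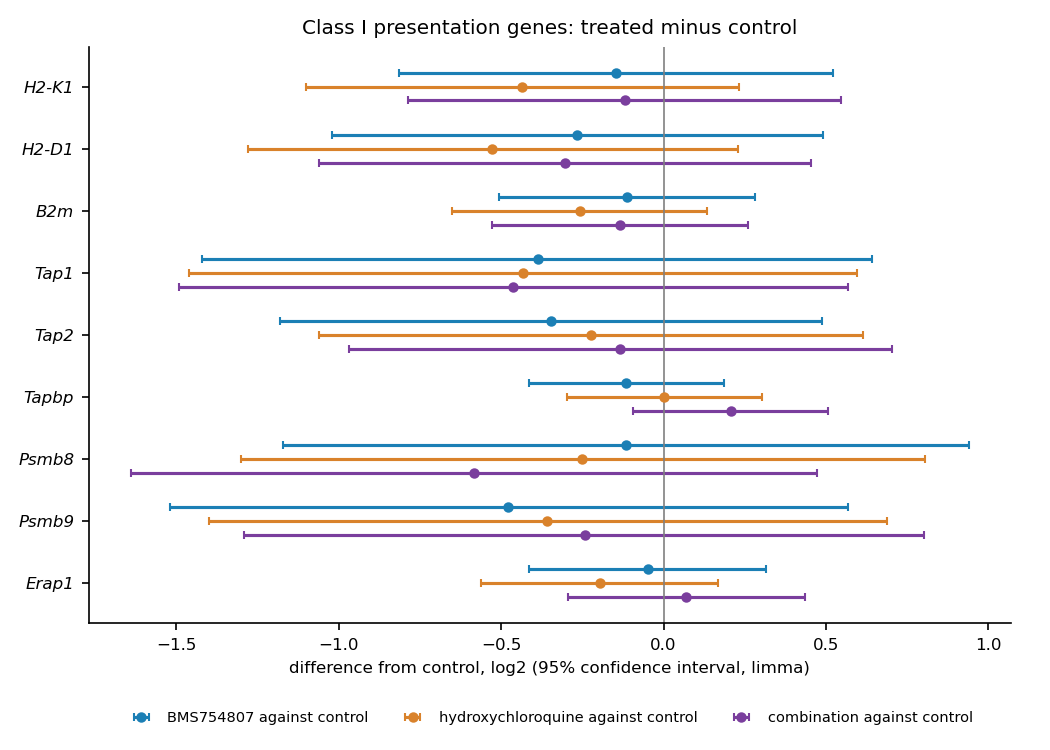
Difference of each treated group from control (horizontal axis, log2) for the 9 measured class I presentation genes (vertical axis), with 95% confidence intervals from limma. Colours mark BMS754807, hydroxychloroquine and the combination. Every interval includes 0, and those of Tap1, Psmb8 and Psmb9 are the widest.

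All 3 comparisons use the same 6 control tumours, so a control mean that lies high moves all of them. Under BMS754807, 9 of 9 members lay below control (median difference -0.15), with 49.6% of all genes below. Under hydroxychloroquine 8 of 9 lay below (median -0.26), with 50% of all genes, and in the combination 7 of 9 (median -0.13), with 48.3%. Without control tumour 6 these counts were 5, 8 and 3 of 9, and the medians -0.012, -0.079 and 0.056. Leaving out BMS754807 tumour 6 instead kept 9 of 9 members below control and moved the median to -0.475. Without hydroxychloroquine tumour 1 the median for that agent moved to -0.515, with 9 of 9 below, and without combination tumour 4 that of the combination moved to -0.335. Over every tumour left out in turn, the median ran from -0.475 to -0.012 for BMS754807, from -0.515 to -0.079 for hydroxychloroquine and from -0.335 to 0.056 for the combination. In the combination its sign turned with 1 control tumour.

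No member had an unadjusted p under 0.05 against control in limma, where 5.88% of genes did for BMS754807, 4.81% for hydroxychloroquine and 5.06% for the combination. Between the combination and BMS754807 alone, 1 of 9 members, Tapbp, had an unadjusted p under 0.05, a share of genes that was 8.61% over the array. Tapbp differed there by 0.32 ± 0.145 (95% interval 0.022 to 0.62, unadjusted p = 0.0368), and with adjustment over all genes this was not called (adjusted p = 0.55). Its tumours overlapped, from 13.07 to 13.66 in the combination and from 12.81 to 13.39 under BMS754807. Between the combination and hydroxychloroquine alone 0 of 9 had an unadjusted p under 0.05 (5.39% of all genes). The smallest p there were those of Erap1 (0.27 ± 0.18) and Tapbp (0.205 ± 0.145), both with an adjusted p of 0.902.

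With both agents as factors over all 24 tumours, 0 of 9 members had an unadjusted p under 0.05 for BMS754807 (5.72% of all genes), for hydroxychloroquine (8.09%) or for their interaction (5.05%). The interaction asks whether the effect of BMS754807 differed with hydroxychloroquine present. It lay above 0 for 8 of 9 members, with a median of 0.36, while 49.1% of all genes lay below 0. Control enters this contrast with a positive sign, so a control mean that lies high raises it. Control tumour 6 was the highest control tumour for every member, and the count without it was not taken. The 9 members are also not separate observations, since 7 of them varied together, as described below. The smallest p of the interaction were those of Tapbp (0.32 ± 0.205) and Erap1 (0.315 ± 0.25), both with an adjusted p of 0.951. For hydroxychloroquine, Tapbp had 0.16 ± 0.10 (adjusted p = 0.732) and H2-D1 -0.28 ± 0.26 (adjusted p = 0.82). For BMS754807, Erap1 had 0.109 ± 0.125 (adjusted p = 0.946) and Psmb8 -0.22 ± 0.36 (adjusted p = 0.964).

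The members differed far more between tumours than between groups. Over all 24 tumours Psmb9 spanned 3.44 log2, Psmb8 3.43 and Tap1 3.38, against a median range of 1.33 over all genes. Their SDs (0.897, 0.913 and 0.885) lay at the 97.7th, 97.8th and 97.5th percentile of all genes. Tap2, H2-D1 and H2-K1 followed with SDs at the 94.6th, 93.3rd and 89.6th percentile. B2m (48.9th), Erap1 (42.2nd) and Tapbp (28.5th) varied no more than the usual gene of the array. B2m had a mean between 16.62 and 16.88 in the 4 groups, near the top of the scale of 1.45 to 19.0 on which the array reports.

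H2-K1, H2-D1, B2m, Tap1, Tap2, Psmb8 and Psmb9 were high and low in the same tumours. Over all 36 pairs of the 9 members and 24 tumours, 27 had an adjusted p under 0.05 for Pearson's r and 24 for Spearman's rho (permutation tests of 100000 resamples, two-sided, Benjamini-Hochberg over the 36). H2-K1 and Tap1 had the closest relation, with r = 0.935 and rho = 0.857 (permutation p = 1e-05 for each, the smallest these resamples can give; adjusted p = 2.77e-05 and 7.2e-05). Their r was 0.957 with group means removed and 0.891 without the 2 tumours farthest from the H2-K1 median. H2-K1 and B2m, which form one molecule, had r = 0.902 and rho = 0.876 with the same permutation p, and H2-K1 and H2-D1 had r = 0.868 and rho = 0.842 (permutation p = 2e-05 for each).

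Tap1 and Psmb9, which start from the shared interval printed above, had r = 0.842 and rho = 0.786 (adjusted permutation p = 2.77e-05 and 9e-05), and r = 0.748 without the 2 farthest tumours. Tap1 had r = 0.935 with H2-K1, 0.768 with Psmb8 and 0.725 with Tap2. Among the 21 pairs of the 7 genes, a set named after the correlations were seen, r ran from 0.725 to 0.935 with a median of 0.822 and rho from 0.61 to 0.876. Within single groups of 6 tumours, where control tumour 6 can act in only 1 group, r for these pairs ran from 0.48 to 0.982 with a median of 0.873. These pairs share arrays and tissue, and the part of tissue makeup in their relation was not tested.

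Tapbp stood apart from the others. Its r with H2-K1 was 0.209 (adjusted permutation p = 0.37) and with H2-D1 0.0835 (adjusted permutation p = 0.699), and over its 8 pairs r ran from 0.0835 to 0.463. The r of 0.463 was with Erap1 and was the only one with an adjusted p under 0.05 (0.0359, permutation test). No rho of Tapbp passed. Erap1 had r between 0.421 and 0.556 with the other 8, with an adjusted p under 0.05 in 6 pairs for r and in 3 for rho (permutation tests). Against the mean of all 9 members, each centred on its own mean (the member score, in log2), Tapbp had r = 0.315 and Erap1 0.551 with group means removed, where the other 7, which make up most of that score, had 0.878 to 0.961.

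**Figure D3:**
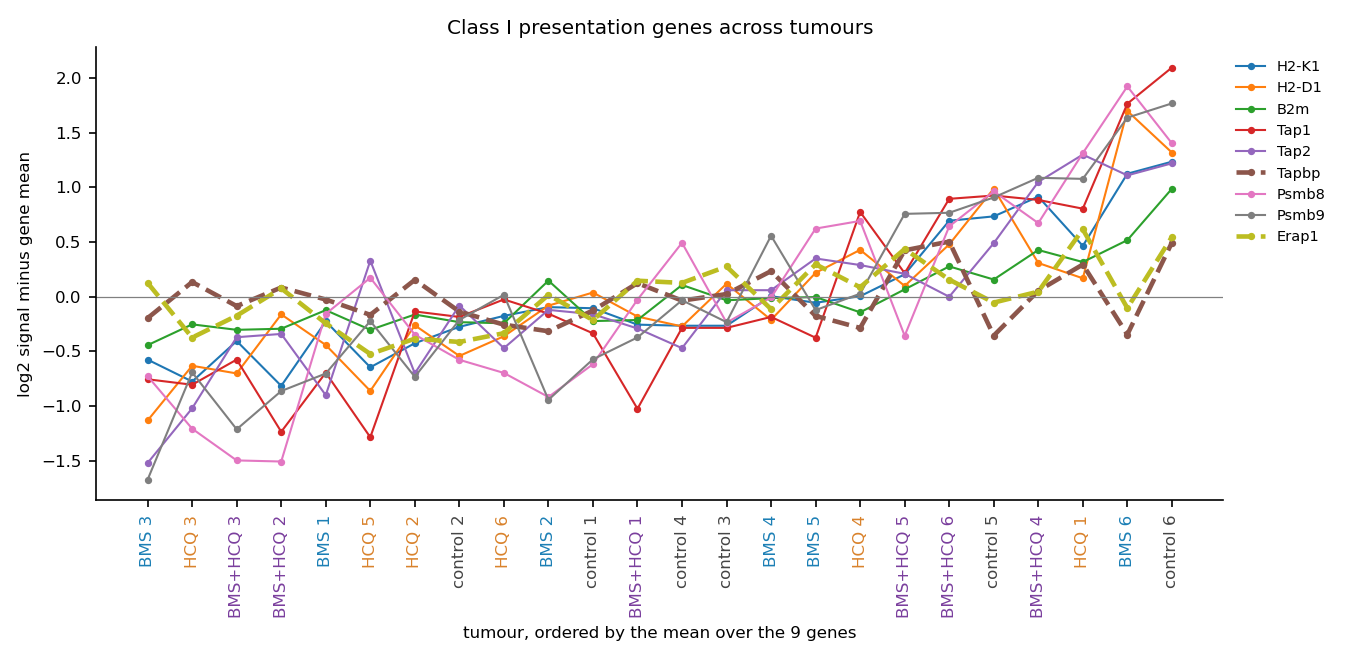
Log2 signal of each class I presentation gene minus its mean over 24 tumours (vertical axis), with tumours ordered by the mean of the 9 genes (horizontal axis; colours of the tumour names mark the group). Dashed lines are Tapbp and Erap1. BMS754807 tumour 6 and control tumour 6 are at the right with scores of 1.04 and 1.23, and tumours of all 4 groups lie on both sides of 0.

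The member score ran from -0.77 in BMS754807 tumour 3 to 1.23 in control tumour 6. In control its 6 values were -0.26, -0.30, -0.06, -0.07, 0.53 and 1.23. Under BMS754807 they were -0.39, -0.27, -0.77, 0.04, 0.08 and 1.04, and under hydroxychloroquine 0.71, -0.33, -0.63, 0.21, -0.39 and -0.28. In the combination they were -0.23, -0.56, -0.59, 0.60, 0.23 and 0.49. Each group thus held at least 1 tumour above 0.59 and at least 2 below -0.2. Control tumour 6 was among the 3 highest of 24 for 9 of 9 members, and BMS754807 tumour 6 for 7 of 9, the exceptions being Tapbp and Erap1.

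The genes outside the list with the closest pattern were chosen by their r with the member score over the 24 tumours after group means were removed. The first 8 were H2-Aa (0.887), H2-Ab1 (0.881), H2-DMb1 (0.88), Itga4 (0.873), H2-Q4 (0.867), H2-Eb1 (0.855), Gbp4 (0.845) and Iigp1 (0.842). H2-Aa, H2-Ab1 and H2-Eb1 are chains of MHC class II, and H2-DMb1 is part of the chaperone that loads it. Gbp4 and Iigp1 are interferon-induced GTPases, and Itga4 is an integrin subunit of leukocytes. H2-Q4 is a further class I heavy chain, whose probes may take up transcripts of H2-K1 or H2-D1. These are descriptions over points that share arrays and tissue, so no p is given.

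The score of each gene list was set beside the member score too, as a description over 24 tumours and here with the group means kept. For 12 non-classical and further heavy chains r was 0.888, and for 7 class II genes it was 0.845 (0.776 without the 2 farthest tumours). With group means removed, as for the single genes above, these were 0.893 and 0.883. Probes of the further heavy chains may take up transcripts of H2-K1 or H2-D1, which are part of the member score. That part was not tested. For 6 leukocyte genes r was 0.693, for 16 interferon-stimulated genes 0.697 (0.491 without the 2 farthest), for 7 T cell genes 0.564 and for 8 macrophage genes 0.534. Other immune lists ranged widely, with 0.581 for dendritic cell, 0.443 for B and plasma cell, 0.365 for neutrophil and 0.127 for NK and cytotoxic genes. Outside the immune lists, endothelial genes had r = 0.516, fibroblast genes 0.295 and acinar genes -0.147. The 10 epithelial and ductal genes ran the other way, with r = -0.456. Adipocyte genes had r = 0.666 and skeletal muscle genes -0.0705. The part of leukocyte or adipocyte RNA in the class I values was not tested.

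The 3 tumours with the highest member scores, control 6, BMS754807 6 and hydroxychloroquine 1, all had high class II scores (1.26, 1.16 and 1.12) and adipocyte scores above 0 (1.48, 4.85 and 2.84). Their other scores differed. Control tumour 6 had a leukocyte score of 0.43 and an interferon-stimulated score of 0.72. BMS754807 tumour 6 had 0.97 and 1.15, with a macrophage score of 1.70 and a skeletal muscle score of 3.71. Hydroxychloroquine tumour 1 had the highest leukocyte score (1.55), T cell score (2.64) and B and plasma cell score (3.68) of the 24. Its interferon-stimulated score was -0.07. The B and plasma cell score was 0.44 in control tumour 6 and -0.34 in BMS754807 tumour 6. Combination tumour 6 had a member score of 0.49 at a leukocyte score of -0.69, and it held the highest Tapbp value of the 24.

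**Figure D4:**
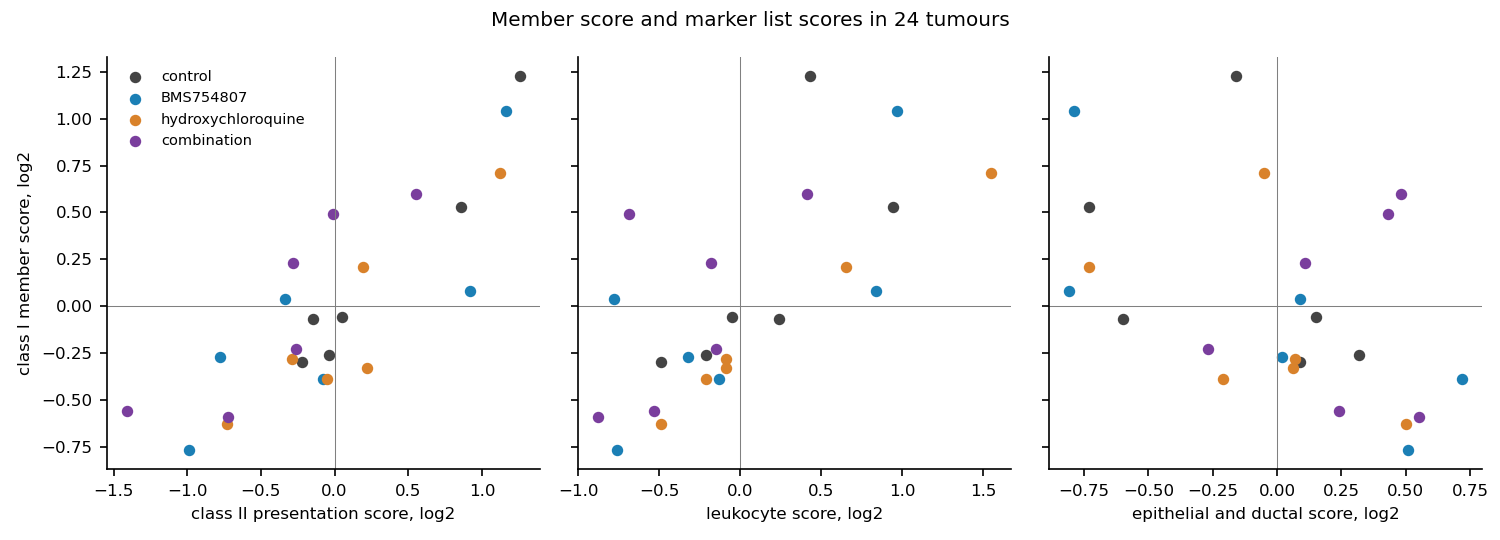
Class I member score (vertical axis, log2) against the scores of class II presentation, leukocyte and epithelial and ductal genes (horizontal axes, log2) in 24 tumours, coloured by group. A score is the mean over a list of each gene's value minus its mean over 24 tumours. The relation is upward for class II genes (r = 0.845) and leukocyte genes (r = 0.693) and downward for epithelial genes (r = -0.456).

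The marker lists also differed between the tumours of each group. The leukocyte score ran from -0.49 to 0.94 in control, -0.78 to 0.97 under BMS754807, -0.49 to 1.55 under hydroxychloroquine and -0.88 to 0.41 in the combination. The epithelial score ran from -0.73 to 0.32, -0.81 to 0.72, -0.73 to 0.50 and -0.27 to 0.55 in the same order. In the combination 6 of 6 leukocyte, 8 of 8 macrophage and 7 of 7 class II genes lay below control, with medians of -0.49, -0.63 and -0.67. So did 7 of 7 endothelial, 7 of 7 dendritic cell and 5 of 5 adipocyte genes, with medians of -0.52, -0.38 and -0.43. Over all genes 48.3% lay below, and in each of the other marker lists some genes lay above control. Limma called 0 genes of any list at an adjusted p under 0.05. At an unadjusted p under 0.05, limma had 0, 3 and 2 of the leukocyte, macrophage and class II genes lower. For endothelial, dendritic cell and adipocyte genes it had 0, 2 and 0, where 2.39% of all genes were lower. Under hydroxychloroquine 16 of 16 interferon-stimulated genes lay below control (median -0.55), with 50% of all genes below. In limma 4 of them had an unadjusted p under 0.05 (2.38% of all genes were lower at that p) and 0 an adjusted one. In the combination 15 of the 16 lay below control (median -0.26), 3 of them at an unadjusted p under 0.05 in limma (2.39% of all genes). Under BMS754807 11 of the 16 did (median -0.11, with 49.6% of all genes below). There 1 was lower at that p, as were 603 of 19505 genes. The part of these shifts in the members' differences was not tested.

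Further class I genes were counted from lists named by role, 46 measured in all, and limma called 0 of them against control at an adjusted p under 0.05 (0% of all genes). At an unadjusted p under 0.05 there were 0 higher and 1 lower for BMS754807, 3 higher and 2 lower for hydroxychloroquine, and 2 higher and 0 lower for the combination. Over all genes the shares at that p, both directions together, were 5.88%, 4.81% and 5.06%. Their median differences were -0.053, 0 and -0.018. Of the 12 non-classical and further heavy chains, 11, 9 and 10 lay below control for BMS754807, hydroxychloroquine and the combination. H2-T23, which presents leader peptides of other class I chains, had -0.265 ± 0.14 for BMS754807 (adjusted p = 0.883). Mr1, which presents vitamin B metabolites, had 0.63 ± 0.20 for hydroxychloroquine, from 7.31 ± 0.21 (SD) in control to 7.94 ± 0.43 (adjusted p = 0.979), and H2-Q2 had -0.46 ± 0.21 (adjusted p = 0.979).

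The third immunosubunit, Psmb10, differed from control by -0.058 ± 0.295, -0.285 ± 0.295 and 0.04 ± 0.295 in the order BMS754807, hydroxychloroquine, combination. Over tumours it moved with the members (r = 0.679, rho = 0.779 with the member score), and as a list with the proteasome cap genes Psme1 and Psme2 it had r = 0.791. The 2 measured constitutive subunits, Psmb6 and Psmb7, had r = 0.193, and the 5 chaperones of the endoplasmic reticulum that help fold class I molecules had r = 0.056.

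Among transcriptional regulators, Irf1 had differences of -0.24 ± 0.18, 0.0017 ± 0.18 and -0.16 ± 0.18. Its r with the member score was 0.655, while the 11 regulators as a list had r = -0.28. Nfya, a subunit of the CCAAT-binding factor, had 0.245 ± 0.12 for BMS754807 (adjusted p = 0.86), and Ezh2, a histone methyltransferase that can silence class I genes, had 0.21 ± 0.11 (adjusted p = 0.888). Irf2 had -0.185 ± 0.108 in the combination (adjusted p = 0.944). Of the interferon-gamma pathway, Ifng lay low on the scale with group means between 3.24 and 3.40 and differences of 0.055 ± 0.26, 0.16 ± 0.26 and 0 ± 0.26, and its r with the member score was 0.0571. The receptor chain Ifngr1 had -0.33 ± 0.13 for BMS754807 (adjusted p = 0.827), and the kinase Jak2 had -0.27 ± 0.10 for hydroxychloroquine (adjusted p = 0.979) and -0.19 ± 0.10 for the combination (adjusted p = 0.944).

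Of the genes of class I turnover, Nbr1 bears on the autophagy route. Nbr1, the cargo receptor, lay at 12.61 ± 0.19 (SD, n = 6) in control, 12.58 ± 0.16 under BMS754807, 12.80 ± 0.39 under hydroxychloroquine and 12.91 ± 0.11 in the combination. The difference was 0.305 ± 0.14 (SE) for the combination, which was not called (adjusted p = 0.944). For BMS754807 it was -0.027 ± 0.14 and for hydroxychloroquine 0.195 ± 0.14. Marchf9, a ubiquitin ligase of the family that marks class I molecules for lysosomes, had 0.63 ± 0.22 for hydroxychloroquine (adjusted p = 0.979) and 0.48 ± 0.22 for the combination (adjusted p = 0.944). The list of 6 turnover genes held Nbr1, Marchf9, Sqstm1, Derl1, Syvn1 and Ubxn4, and not all of them act in autophagy. Above control lay 2, 6 and 4 of them for BMS754807, hydroxychloroquine and the combination. The list's r with the member score was -0.162, and that of Nbr1 alone was -0.265.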

How the data were processed

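The deposited table holds log2 signal per probe set as the authors processed it with Transcriptome Analysis Console 4.0, per the submitters' processing notes. The log base was inferred from the values (1.45 to 19.0, array medians 6.79 to 7.03). Background correction, normalization and genome build were not given in the sources used here. Symbols came from the platform annotation: 19572 of 22206 probe sets had 1, 0 had several and 2634 had none. Where a gene had several probe sets, the one with the highest mean was kept (67 dropped, 19505 genes). Arrays have no count depth, and their number limits the precision.

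All 24 arrays entered 1 linear model with 4 group means (limma 3.58.1, R 4.3.3, lmFit and eBayes, 20 residual degrees of freedom). Tests were two-sided and adjusted by Benjamini-Hochberg over all genes, with a threshold of 0.05. The procedure was tested on simulated data with shifts larger than any difference of a member here. That test does not show whether differences of the size seen could be called. Alternatives were the mean of a gene's probe sets, quantile normalization, equal array medians, no dim genes, array weights, a trended and robust prior, only the groups compared, replicate number as a block and each tumour left out.

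The members and gene lists were chosen with earlier results of these data known. Text names every member against control, the members of smallest p elsewhere, and of the other class I genes the 2 of smallest p in each direction with Nbr1, Irf1, Psmb10 and Ifng.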

Additional observations from a re-analysis of the deposited data

Results flagged for a closer look

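In 40 groups of 6 tumours checked for a tumour far from the rest (the 9 members and the member score in each group), 4 values stood apart by Dixon's criterion, where chance flags about 1 group in 20. B2m in control was highest in tumour 6 at 17.74, with a gap to the next tumour of 0.68 of the range, and under hydroxychloroquine in tumour 1 at 17.07, with a gap of 0.742. H2-K1 under BMS754807 was highest in tumour 6 at 14.63 (gap 0.659), and Tap1 in the same tumour reached 9.77 (gap 0.762). The same 3 tumours held the highest member score of their group.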

How the results depend on the processing

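Under the planned settings other than leaving out a tumour, 280 of 282 values of the members kept their direction and call, and with each tumour left out in turn 483 of 504 did. With array medians set equal, Tapbp and Irf1 under hydroxychloroquine both moved to -0.0617. With array weights H2-K1 in the combination moved to 0.0126, and with quantile normalization Psmb10 there moved to -0.0177. None of these gene differences was called in either direction. The share of all genes below control also moved with array medians set equal. It was then 63.4% for hydroxychloroquine, 54.9% for the combination and 47.6% for BMS754807. In the main fit these shares were 50%, 48.3% and 49.6%.

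With 1 tumour left out, values that changed sign ranged as follows, none of them called. For BMS754807 H2-K1 ran from -0.366 to 0.065, B2m from -0.214 to 0.0587, Psmb8 from -0.475 to 0.118, Erap1 from -0.14 to 0.052, Nbr1 from -0.072 to 0.026, Psmb10 from -0.212 to 0.11 and Ifng from -0.092 to 0.279. For hydroxychloroquine Tapbp ran from -0.065 to 0.105 and Irf1 from -0.081 to 0.105. For the combination H2-K1 ran from -0.292 to 0.0917, B2m from -0.22 to 0.0387, Tap2 from -0.335 to 0.0753, Psmb9 from -0.455 to 0.056, Erap1 from -0.0217 to 0.17 and Psmb10 from -0.0737 to 0.164. For B2m, and for H2-K1 and Erap1 under BMS754807 and Tap2 in the combination, it was leaving out control tumour 6 that turned the sign.

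The count of genes called, 0 in every comparison, moved to 1 for hydroxychloroquine against control with the replicate block. For hydroxychloroquine as a factor it moved to 1 with the replicate block and to 5 with a trended and robust prior. With single tumours left out it ran from 0 to 1 for BMS754807 against control (1 without BMS754807 tumour 1), from 0 to 1 for the combination against BMS754807 (1 without BMS754807 tumour 1 or combination tumour 6) and from 0 to 2 for hydroxychloroquine as a factor (2 without hydroxychloroquine tumour 2, 1 without control or BMS754807 tumour 4). The cause was not tested. Replicate numbers are not said to pair the tumours. Deviations of same-numbered tumours correlated between -0.212 and 0.305, over 0.1 in at most 3 of 6 pairs of a comparison. Differently numbered tumours were not set beside these, so pairing or a shared batch was not tested. The planned relations with Nlrc5 were not run, since no probe set used here carried that symbol, and the 36 member pairs were added after the data were seen.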
